A study of Mus musculus with 12 samples.

Results

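The transcripts of 9 receptors for prostaglandins and bradykinin were followed through 12 RNA-seq libraries of sorted mouse sensory neurons. The genes are Ptger1, Ptger2, Ptger3 and Ptger4 (receptors EP1 to EP4 of prostaglandin E2), Ptgdr (receptor DP1 of prostaglandin D2), Ptgir (receptor of prostacyclin), Ptgfr (receptor of prostaglandin F2 alpha), Bdkrb1 and Bdkrb2 (the inducible and the constitutive bradykinin receptor). They were chosen by symbol, as the receptors of these inflammatory mediators, and each was found by its Ensembl identifier among the 41388 genes of every count table. All 9 of 9 were found, and 8 of 9 passed the filter on low counts and were among the 15281 genes tested.

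The libraries came from 4 groups of 3 and are named by letter: A, B and C in female L6S1 and in male L6S1, B, C and D in female L345, and A, B and C in male L345. L6S1 denotes dorsal root ganglia (DRG) of the L6 and S1 levels, which include the pelvic afferents, and L345 those of the L3 to L5 levels, which mainly serve the hindlimb. Every library came from C57BL/6 mice of 3 months that were heterozygous for RetFloxedEGFP, a floxed Ret9 allele knocked into the Ret locus and followed by EGFP, and that also carried Cre in the locus of the sodium channel NaV1.8 (Scn10a). EGFP is made where Cre has removed the floxed cassette and the Ret promoter is active, so the cells are NaV1.8-lineage neurons in which a copy of Ret had been lost in both levels alike, and no library of another genotype was analysed here. The genotype fields of the 4 later libraries each list only the Ret or the Cre allele, while their source names give both. Each library was made from 10 ng of RNA of EGFP-positive cells sorted from 12 to 32 pooled ganglia of 2 to 8 mice, so its values are means over the pool. The pool of male L345 C is put at 5 mice by its pool-size label and at 3 mice by its protocol. No source used here says whether pools of both levels shared mice, and p-values therefore measure the spread between these pools.

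Prostaglandins are made from arachidonic acid by cyclooxygenases, and bradykinin is cut from kininogens by kallikreins; both classes of mediator excite or sensitise nociceptor terminals in inflamed tissue. Receptors DP1, EP2, EP4 and the prostacyclin receptor couple to Gs and raise cyclic AMP, EP3 couples mainly to Gi, and EP1, the prostaglandin F2 alpha receptor and both bradykinin receptors raise intracellular calcium, the last 3 through Gq. In nociceptors these routes converge on channels such as TRPV1 and the sodium channels, and aspirin-like drugs act upstream by blocking cyclooxygenases.

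Total counts were 16176436 (female L6S1 A) to 26694404 (female L345 D) per library, and 3 counts, taken as the floor of detection, were 0.112 to 0.185 CPM, the count scaled to a common library total. CPM values of genes are further scaled by TMM, edgeR's correction for library composition. Female L6S1 B, female L6S1 C, male L6S1 C and female L345 D were submitted later than the remaining 8 libraries. Female L6S1 B and C stood apart from the others: summed over 6 markers of large myelinated neurons they had 247 and 248 CPM, against 505 to 896 CPM in the other 10 libraries. The top GC decile of genes stood at -1.04 (log2) against the bottom decile in female L6S1 B, outside the -0.47 to 0.61 of the other libraries. The top decile of gene length stood at -0.84 (log2) against the bottom decile in female L6S1 C, outside the -0.40 to 0.52 of the other libraries. Markers of nociceptors were abundant. Scn10a, the NaV1.8 gene, had 429 ± 66.5 CPM at L6S1 and 573 ± 96.0 CPM at L345 (SD, n = 6 each). In every library, 7 peptidergic nociceptor markers summed to at least 9791 CPM and 8 markers of the Mrgprd class of nociceptors to at least 1577 CPM. Glial markers were present as well, at 3907 to 4765 CPM summed over 10 genes at L6S1 and 3705 to 4375 CPM at L345.

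The promoters of 7 of the 9 genes were found in the RefSeq table (build GRCm38.p6), as the 250 bases before and the 50 after each annotated start. Of these, 4 are shown because the results turn on them: Ptgdr and Ptgir had the highest levels of the receptor transcripts, and Ptger3 and Ptger4 were low in the same 2 libraries. They are chr14:44859326-44859625 (minus strand, Ptgdr), chr7:16906240-16906539 (plus strand, Ptgir), chr3:157566626-157566925 (plus strand, Ptger3) and chr15:5244138-5244437 (minus strand, Ptger4), written 5′ to 3′ in the direction of the gene with each GC box (GGGCGG or its complement CCGCCC) in capitals.
Ptgdr: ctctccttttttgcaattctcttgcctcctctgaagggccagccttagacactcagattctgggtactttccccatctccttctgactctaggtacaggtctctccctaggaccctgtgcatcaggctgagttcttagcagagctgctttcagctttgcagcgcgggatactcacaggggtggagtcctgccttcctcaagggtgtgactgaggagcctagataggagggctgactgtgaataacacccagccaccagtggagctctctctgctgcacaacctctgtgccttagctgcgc
Ptgir: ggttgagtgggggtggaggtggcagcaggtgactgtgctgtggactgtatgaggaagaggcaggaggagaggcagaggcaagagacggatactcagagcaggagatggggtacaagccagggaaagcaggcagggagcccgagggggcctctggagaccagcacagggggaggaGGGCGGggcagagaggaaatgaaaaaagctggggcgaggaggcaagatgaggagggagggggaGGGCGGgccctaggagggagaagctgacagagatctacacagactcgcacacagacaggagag
Ptger3: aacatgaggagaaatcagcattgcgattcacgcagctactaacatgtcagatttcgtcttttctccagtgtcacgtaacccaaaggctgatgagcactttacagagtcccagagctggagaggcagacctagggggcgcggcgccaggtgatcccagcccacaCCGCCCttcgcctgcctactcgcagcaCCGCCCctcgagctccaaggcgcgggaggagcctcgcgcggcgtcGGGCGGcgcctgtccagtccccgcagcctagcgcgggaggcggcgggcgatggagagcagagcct
Ptger4: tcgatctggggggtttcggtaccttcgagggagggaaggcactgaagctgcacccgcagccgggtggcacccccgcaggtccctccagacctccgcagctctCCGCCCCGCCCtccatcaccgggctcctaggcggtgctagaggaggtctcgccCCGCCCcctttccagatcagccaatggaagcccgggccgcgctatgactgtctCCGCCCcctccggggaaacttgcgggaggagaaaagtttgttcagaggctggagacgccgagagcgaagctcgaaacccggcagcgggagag

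The 4 sequences differ in base composition and in GC boxes, the hexamer known to bind Sp-family factors. Ptger4 had 4 matches, of which the 2 farthest from the start overlap by a base, Ptger3 had 3, Ptgir had 2 and Ptgdr had none, with GC contents of 67.0, 64.0, 62.0 and 54.7%. Of all 32851 promoters in the table, 35.7% held a GC box on either strand. TGTGGT, the Runx core (in 16.8% of promoters), TGACG, the core of the cyclic AMP response element (20.8%), and TATAAA, the TATA box (13.6%), were searched on both strands as well and matched none of the 7 promoters. A match is a description of these letters and not a binding site.

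Receptors of prostaglandin D2 and prostacyclin dominated the set. Per kilobase of exon, which is needed to compare genes, Ptgdr stood at 34.5 ± 6.17 CPM per kilobase (SD, n = 12 libraries) and Ptgir at 24.3 ± 3.72, above 88.2% and 84.2% of the genes tested. Ptgdr was above Ptgir in 10 of 12 libraries, while their ranges overlapped. Ptger1 followed at 6.34 ± 2.90 and Ptger3 at 3.83 ± 1.49 CPM per kilobase, and the ranges of Ptgir and Ptger1 did not overlap. Ptger4 (1.65 ± 0.489), Bdkrb2 (1.44 ± 0.188) and Ptger2 (1.12 ± 0.321) lay close together, and Ptger4 exceeded Bdkrb2 in only 7 of 12 libraries, so the order of these neighbours is within their spread. Ptgfr, at 0.314 ± 0.232 CPM per kilobase, lay below Ptger2 in 12 of 12 libraries, and Bdkrb1 was last with 0.0167. In the summed level per length of the 9 receptors, Ptgdr and Ptgir together made up 81.8 ± 5.83% at L6S1 and 78.8 ± 1.12% at L345 (SD, n = 6 each).

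**Figure D1:**
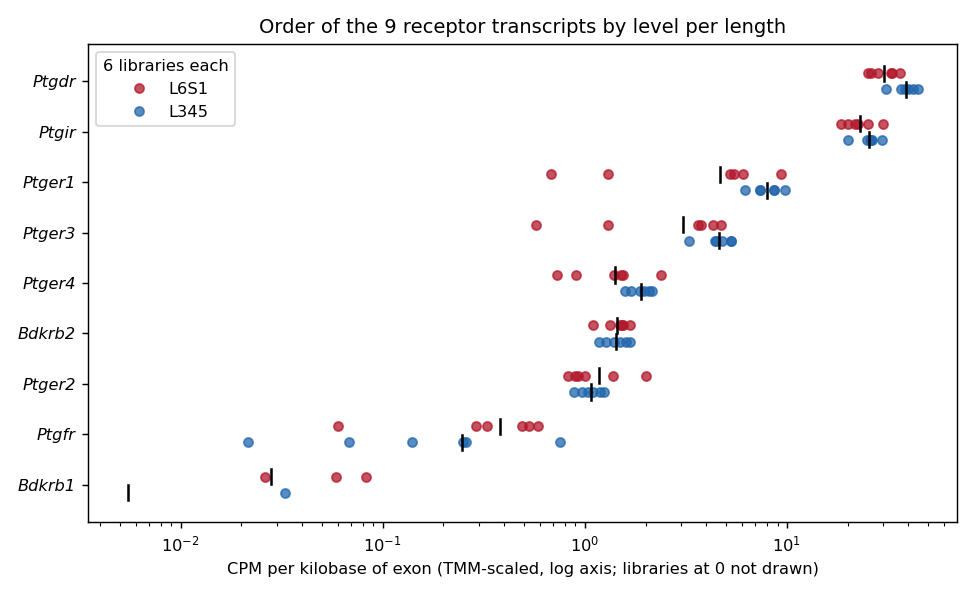
Level of each receptor transcript per kilobase of exon (TMM-scaled CPM per kilobase, log axis), with 1 point per library (L6S1 in the upper row of each gene, L345 in the lower; 6 libraries each) and a bar at the mean; libraries at 0 are not drawn. Ptgdr and Ptgir lie above every other receptor in both levels, and the 2 lowest L6S1 points of Ptger1, Ptger3 and Ptger4 are female L6S1 B and C.

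The comparison of levels asked whether neurons of the L6 and S1 ganglia carry other amounts of these receptor transcripts than those of L3 to L5. By edgeR's quasi-likelihood test with Benjamini-Hochberg adjustment over all genes, 0 of the 8 receptor genes tested had an adjusted p under 0.05, against 2.33% of the 15281 genes (356; 1.45% higher and 0.877% lower at L6S1). At an unadjusted p under 0.05 there were 2 of 8 (Ptgdr and Ptger1), against 26.6% of all genes. DESeq2 called 0 of the 8, against 11.0% of the genes it tested, and limma-voom with sample weights 3, against 21.4%. Of the 8, 5 had a log2 fold change (L6S1 over L345) below 0 and 3 above, with a median of -0.25, beside -0.06 and 55.5% below 0 over all genes tested. Because the libraries are pools, fewer cells that make a transcript and less of it per cell cannot be told apart.

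Ptgdr (ENSMUSG00000071489, chromosome 14, 44851235 to 44859375 on GRCm38.p2, 2 exons) encodes DP1, through which prostaglandin D2 raises cyclic AMP. Female L6S1 A, B and C had 105.0, 83.4 and 90.4 CPM and male L6S1 A, B and C had 116.0, 104.0 and 80.4 CPM. Female L345 B, C and D had 134.0, 123.0 and 99.2 CPM and male L345 A, B and C had 117.0, 142.0 and 126.0 CPM. Every L6S1 library was lower than the mean of the same-sex L345 libraries, though the levels overlapped through female L345 D. The mean was 96.5 ± 13.9 CPM at L6S1 and 124.0 ± 14.8 CPM at L345 (SD, n = 6 each; log2 fold change -0.36 ± 0.13 SE, edgeR adjusted p = 0.109). The effect was alike in size in females (-0.35 ± 0.18) and males (-0.36 ± 0.18), with an interaction of 0.01 ± 0.25 (edgeR adjusted p = 0.999).

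The 4 libraries of the later submission were the 4 lowest of the 12 for Ptgdr. Within the first submission, the 3 L6S1 libraries (104.0 to 116.0 CPM) lay below the 5 L345 libraries (117.0 to 142.0 CPM) without overlap. The share of all genes that separate likewise in these 8 libraries was not counted. The log2 fold change over those 8 libraries was -0.27 (edgeR adjusted p = 0.163), and it was -0.24 with the submission as a term (edgeR adjusted p = 0.249). The later submission held only 1 L345 library and gave no value of its own. An antisense gene, Gm16976, shares 705 exon bases (22.1%) with Ptgdr, and it had at most 3.35 CPM in any library; reads of the shared bases cannot be assigned to a strand, since no source used here gives the strand setting.

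Ptgir (ENSMUSG00000043017, chromosome 7, 16906490 to 16910905, 2 exons), the prostacyclin receptor gene, was the other abundant receptor transcript. It had 75.3, 62.0 and 100.3 CPM in female L6S1 A, B and C and 66.7, 72.4 and 84.5 CPM in male L6S1 A, B and C. In female L345 B, C and D it had 83.4, 85.7 and 99.0 CPM, and in male L345 A, B and C 86.6, 66.9 and 87.9 CPM. The levels overlapped over nearly their whole range, with the lowest and the highest library both among the female L6S1 ones. The mean was 76.9 ± 13.8 CPM at L6S1 and 84.9 ± 10.4 CPM at L345 (SD, n = 6 each; -0.14 ± 0.14, edgeR adjusted p = 0.51). Across the 12 libraries the coefficient of variation was 15.3% for Ptgir, 17.9% for Ptgdr and 45.8% for Ptger1.

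**Figure D2:**
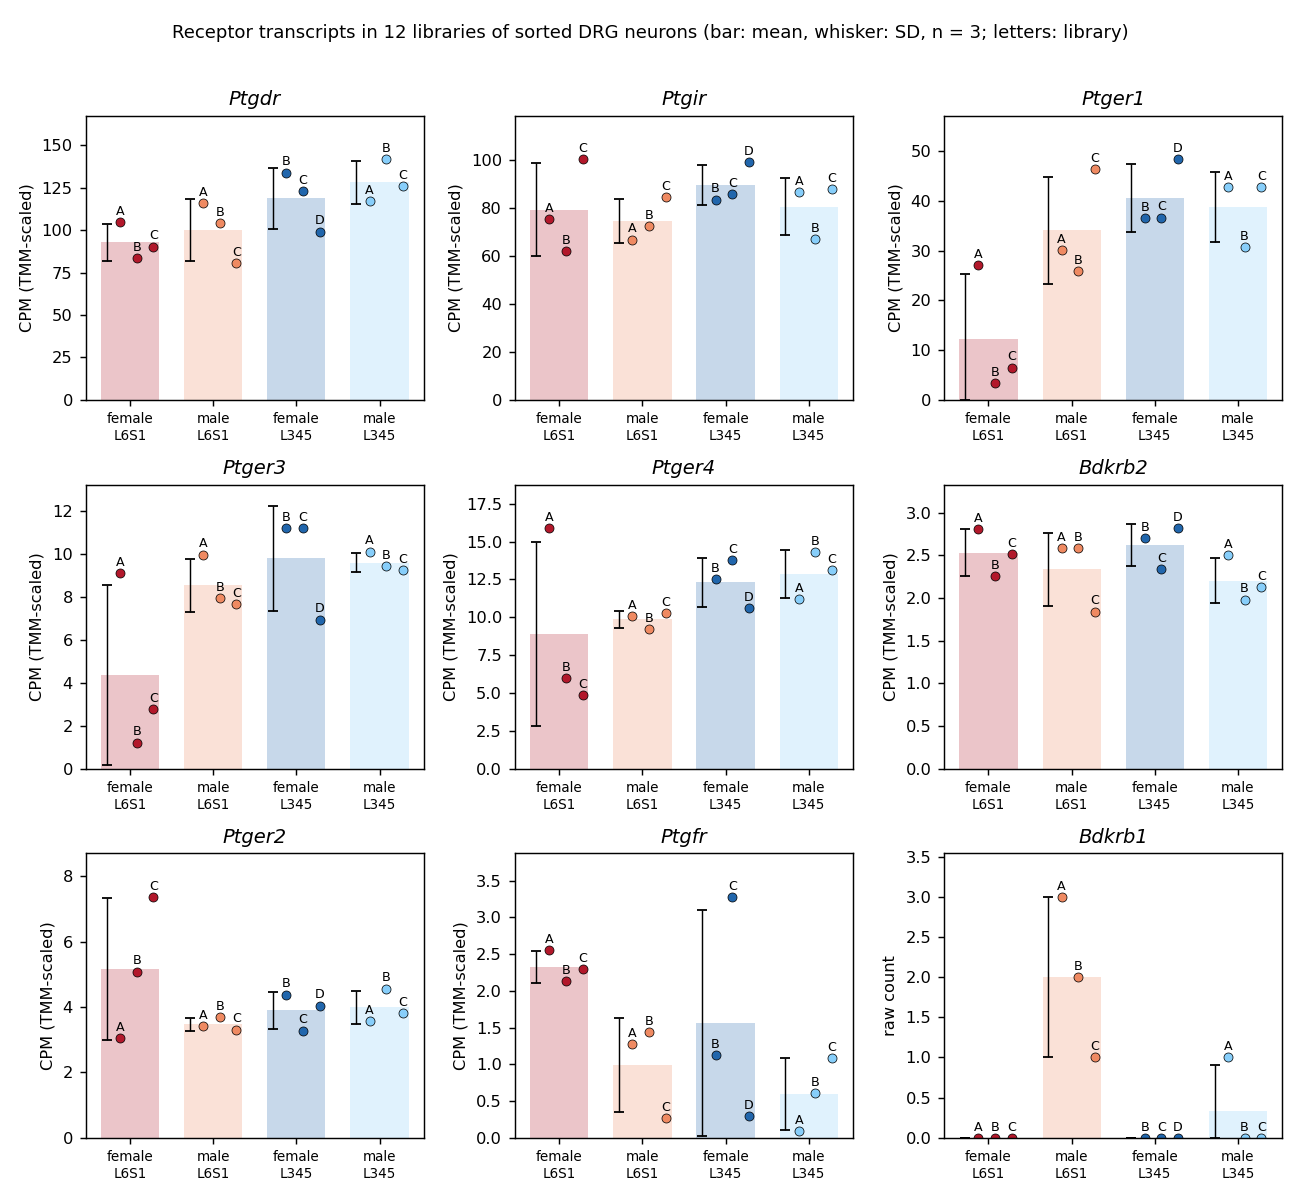
TMM-scaled CPM of each receptor transcript (raw counts for Bdkrb1) in the 12 libraries, grouped from left to right as female L6S1, male L6S1, female L345 and male L345; bars are means, whiskers SD (n = 3, not drawn below 0), and letters name the library. Ptger1 and Ptger3 are low in female L6S1 B and C alone (3.39 and 6.49 CPM for Ptger1), while Ptgir and Bdkrb2 vary little between groups.

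Among the prostaglandin E2 receptors, Ptger1 had the widest span. The gene (ENSMUSG00000019464, chromosome 8, 83666833 to 83672753, 2 exons) encodes EP1, the calcium-raising receptor. It had 27.1, 3.39 and 6.49 CPM in female L6S1 A, B and C and 30.1, 25.8 and 46.3 CPM in male L6S1 A, B and C, against 36.5, 36.6 and 48.4 CPM in female L345 B, C and D and 42.7, 30.7 and 42.8 CPM in male L345 A, B and C. Female L6S1 B and C were the lowest by far, 5 of the 6 L6S1 libraries lay below every L345 library, and male L6S1 C lay among the highest. The mean was 23.2 ± 16.0 CPM at L6S1 and 39.6 ± 6.26 CPM at L345 (SD, n = 6 each; -0.96 ± 0.37, edgeR adjusted p = 0.133).

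That value rested on 2 libraries. Without female L6S1 B and C the log2 fold change of Ptger1 was -0.39 (edgeR adjusted p = 0.371), with the lone female L6S1 library taken to vary like the other groups. Without female L6S1 A it was -1.61 (edgeR adjusted p = 0.000282), in a fit that called 25.7% of all genes. The later submission held both the 2 lowest libraries of Ptger1 and the 2 highest (male L6S1 C and female L345 D). Within the first submission, where female L6S1 A was the lone female L6S1 library, the log2 fold change was -0.46. There, 3 L6S1 libraries of 25.8 to 30.1 CPM lay below 5 L345 libraries of 30.7 to 42.8 CPM. The share of all genes that separate likewise was not counted.

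Ptger3 (ENSMUSG00000040016, chromosome 3, 157566892 to 157644758, 4 exons) encodes EP3, which lowers cyclic AMP through Gi. Female L6S1 A, B and C had 9.09, 1.22 and 2.76 CPM and male L6S1 A, B and C had 9.96, 7.95 and 7.67 CPM. Female L345 B, C and D had 11.2, 11.2 and 6.94 CPM and male L345 A, B and C had 10.1, 9.43 and 9.24 CPM. The 4 libraries of the later submission were again the 4 lowest, and outside female L6S1 B and C the levels overlapped. The mean was 6.44 ± 3.58 CPM at L6S1 and 9.68 ± 1.59 CPM at L345 (SD, n = 6 each; -0.68 ± 0.34, edgeR adjusted p = 0.212). The log2 fold change was -0.14 (edgeR adjusted p = 0.748) without female L6S1 B and C, and -0.21 (edgeR adjusted p = 0.461) within the first submission.

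Ptger4 (ENSMUSG00000039942, chromosome 15, 5206661 to 5244187, 5 exons), the gene of the Gs-coupled EP4, showed the same pair of low libraries. It had 15.9, 5.99 and 4.86 CPM in female L6S1 A, B and C and 10.1, 9.22 and 10.3 CPM in male L6S1 A, B and C, against 12.5, 13.8 and 10.6 CPM in female L345 B, C and D and 11.2, 14.3 and 13.1 CPM in male L345 A, B and C. Of the L6S1 libraries, 5 lay below every L345 library and 1, female L6S1 A, above all of them. The mean was 9.39 ± 3.88 CPM at L6S1 and 12.6 ± 1.46 CPM at L345 (SD, n = 6 each; -0.43 ± 0.24, edgeR adjusted p = 0.258). Its log2 fold change was -0.01 (edgeR adjusted p = 0.976) without female L6S1 B and C, and -0.08 (edgeR adjusted p = 0.782) within the first submission. Exons of Ttc33 (82 bases, 1.2% of Ptger4) and of Gm15937 (1015 bases, 15.3%) overlap Ptger4 on the opposite strand. Gm15937 had at most 1 count in a library, whereas Ttc33 had 149.0 to 282.0 CPM with its highest value in female L6S1 B.

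Ptger2 (ENSMUSG00000037759, chromosome 14, 44988195 to 45003820, 2 exons), the gene of the other Gs-coupled prostaglandin E2 receptor, EP2, ran the opposite way in those 2 libraries. Female L6S1 A, B and C had 3.05, 5.08 and 7.37 CPM, and male L6S1 A, B and C had 3.41, 3.68 and 3.31 CPM. Female L345 B, C and D had 4.38, 3.28 and 4.04 CPM, and male L345 A, B and C had 3.58, 4.56 and 3.82 CPM. Female L6S1 B and C were the 2 highest of the 12 libraries, and the other 10 spanned 3.05 to 4.56 CPM with the levels mixed. The mean was 4.32 ± 1.66 CPM at L6S1 and 3.95 ± 0.484 CPM at L345 (SD, n = 6 each; 0.11 ± 0.20, edgeR adjusted p = 0.75). The sign turned without female L6S1 B and C (-0.28, edgeR adjusted p = 0.516) and within the first submission (-0.26, edgeR adjusted p = 0.508).

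The 2 libraries in which Ptger1, Ptger3 and Ptger4 were lowest also differed in neuronal and non-neuronal markers. Peptidergic nociceptor markers summed to 17730 and 17876 CPM in female L6S1 B and C, against 9791 to 14746 CPM in the other 10 libraries, and markers of the Mrgprd class to 1577 and 1813 CPM, against 1760.3 to 2558 CPM. Macrophage markers summed to 66.7 CPM and endothelial markers to 24.6 CPM in female L6S1 C, and both lay within the range of the other 10 libraries in female L6S1 B (6.3 and 3.91 CPM). By level, fibroblast markers summed to 129.7 to 340 CPM at L6S1 and 73.4 to 95.0 CPM at L345 (1 of 8 genes called higher), peptidergic markers to 11065 to 17876 CPM at L6S1 and 9791 to 11179 CPM at L345 (3 of 7 called higher), and Mrgprd-class markers to 1577 to 2051 CPM at L6S1 and 1792 to 2558 CPM at L345 (2 of 8 called lower). Macrophage markers summed to 6.3 to 66.7 CPM at L6S1 and 3.8 to 5.62 CPM at L345 (1 of 10 called higher). T cell markers summed to 3.54 to 9.38 CPM at L6S1 and 1.91 to 3.25 CPM at L345 (1 of 6 called higher), and neither list overlapped between levels. Over all genes tested, 1.45% were called higher and 0.877% lower at L6S1. The share of all genes whose levels do not overlap was not counted. Of the T cell markers, Cd3e, Cd3d, Cd3g and Cd8a were at or under 3 counts in every library. The part of these differences, of base composition, of gene length and of the submission in the receptor values was not tested. Ptger1 has 58.5% GC, higher than 93.5% of the tested genes with a known GC content and a mean log2 CPM over 1. Ptger3 has 47.2%, higher than 38.8% of these genes, and Ptger4 has 43.6%, higher than 19.8%. By exon length Ptger1, Ptger3 and Ptger4 stood at percentiles 64.4, 19.0 and 79.8 in that order. With offsets for GC content and length in the fit, the log2 fold changes were -0.78 for Ptger1, -0.79 for Ptger3 and -0.25 for Ptger4, and none passed (edgeR adjusted p = 0.125, 0.169 and 0.422).

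The Pearson r of log2 CPM was 0.929 between Ptger1 and Ptger3, 0.843 between Ptger3 and Ptger4 and 0.801 between Ptger1 and Ptger4, and Ptgdr had 0.688 with Ptger3, 0.674 with Ptger4, 0.502 with Ptger1 and -0.082 with Ptgir; the points share the 2 libraries that stood apart, library depth and base composition, and no test was made. Among 9964 other genes of at least 5 CPM, Gorasp2 (0.996), Gramd1a (0.992) and Mapre3 (0.991) were the most like Ptger1, while Ptger3 ranked 531 and Ptger4 1407 in likeness to it. Gorasp2, a Golgi stacking gene, had 33.2 and 43.8 CPM in female L6S1 B and C and 95.8 to 113 CPM at L345. The most like Ptger3 were Snap29 (0.987), D130043K22Rik (0.983) and Pstpip2 (0.982), and the most like Ptger4 were Zfp326 (0.963), Slc25a24 (0.958) and Phf21a (0.955). Nearest to Ptgir were Ppm1h (0.931), Dusp3 (0.928) and Add1 (0.926), and nearest to Ptgdr were Il6st (0.942), Wtap (0.933) and Anks1b (0.923). Il6st, the gene of the shared receptor gp130, had 135 to 199 CPM at L6S1 and 161 to 270.1 CPM at L345.

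Ptgfr (ENSMUSG00000028036, chromosome 3, 151798918 to 151837630, 4 exons), the prostaglandin F2 alpha receptor gene, was scarce and uneven. Female L6S1 A, B and C had 2.56, 2.13 and 2.30 CPM (42, 49 and 55 counts) and male L6S1 A, B and C had 1.27, 1.44 and 0.263 CPM. Female L345 B, C and D had 1.12, 3.28 and 0.297 CPM, and male L345 A, B and C had 0.0943, 0.608 and 1.08 CPM, the first of these from 2 counts. The highest library was female L345 C and the lowest male L345 A, so the L6S1 libraries all lay inside the L345 range. The mean was 1.66 ± 0.848 CPM at L6S1 and 1.08 ± 1.15 CPM at L345 (SD, n = 6 each; 0.63 ± 0.55, edgeR adjusted p = 0.466). Between the sexes the mean was 1.95 ± 1.07 CPM in females and 0.793 ± 0.553 CPM in males (female over male 1.30 ± 0.55, edgeR adjusted p = 0.764), and the ranges overlapped.

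The bradykinin receptors lie next to each other on chromosome 12, Bdkrb2 at 105563172 to 105593071 (ENSMUSG00000021070, 3 exons) and Bdkrb1 at 105603085 to 105605428 (ENSMUSG00000041347, 2 exons). Bdkrb2, the constitutive B2 receptor gene, was the steadiest transcript of the set with a coefficient of variation of 13.0%. It had 2.81, 2.26 and 2.51 CPM in female L6S1 A, B and C and 2.58, 2.58 and 1.84 CPM in male L6S1 A, B and C, against 2.70, 2.34 and 2.82 CPM in female L345 B, C and D and 2.50, 1.98 and 2.13 CPM in male L345 A, B and C. The levels overlapped throughout, at 2.43 ± 0.337 CPM at L6S1 and 2.41 ± 0.325 CPM at L345 (SD, n = 6 each; 0.01 ± 0.18, edgeR adjusted p = 0.97). These values come from 39 to 76 counts a library.

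Bdkrb1, the B1 receptor gene that is induced by inflammation and injury, was at or under the floor of 3 counts in all 12 libraries. Female L6S1 A, B and C had 0 counts each and male L6S1 A, B and C had 3, 2 and 1 counts, against 0 in female L345 B, C and D and 1, 0 and 0 counts in male L345 A, B and C. The 7 counts all came from male libraries, and with both levels at the floor no fold is given. A difference between levels or sexes was not detectable at this depth.

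**Figure D3:**
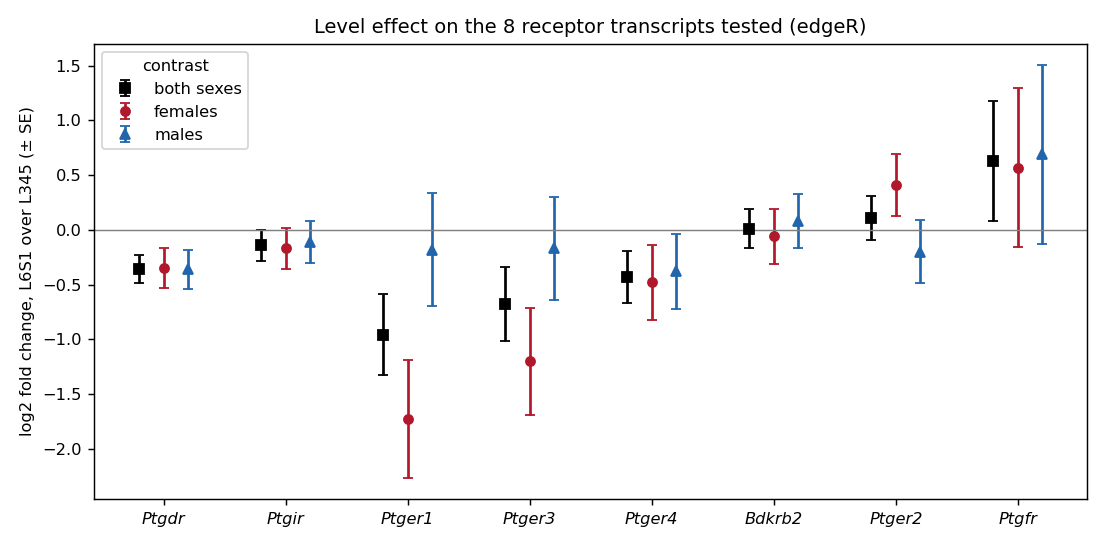
Log2 fold change (L6S1 over L345, vertical axis) of the 8 receptor transcripts tested, for both sexes together, females and males; whiskers are SE from the edgeR fit. Ptgdr has nearly the same value in both sexes (-0.35 and -0.36), whereas Ptger1 lies at -1.73 in females and -0.18 in males, with SE of 0.54 and 0.52.

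Split by sex, no receptor gene passed either. By edgeR 0 of 8 were called in females, against 0.36% of all genes, and 0 of 8 in males, against 0.222%, and DESeq2 and limma-voom called 0 in each sex. Of all genes DESeq2 called 5.57% in females and 0.759% in males, and limma-voom 0.34% in females and 12.2% in males. At an unadjusted p under 0.05 there were 2 in females (Ptger1 and Ptger3; 24.0% of all genes) and 0 in males (8.83%). Ptger1 had -1.73 ± 0.54 in females (edgeR adjusted p = 0.129) and -0.18 ± 0.52 in males (edgeR adjusted p = 0.924), and Ptger3 had -1.20 ± 0.49 in females (edgeR adjusted p = 0.166) and -0.17 ± 0.47 in males (edgeR adjusted p = 0.922). The difference of these effects between the sexes did not pass: the interaction was -1.55 ± 0.74 for Ptger1 and -1.03 ± 0.67 for Ptger3 (edgeR adjusted p = 0.871 for both). No receptor gene passed the interaction test (0.0% of all genes were called by edgeR; 0 of 8 and 4.67% of all genes had an unadjusted p under 0.05), and DESeq2 and limma-voom called 0 of 8 too, with 0.0131% of all genes called by each.

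In the female against male contrast, edgeR, DESeq2 and limma-voom called 0 of 8 (they called 0.0589%, 0.203% and 0.0654% of all genes in that order), and Ptgfr alone had an unadjusted p under 0.05 (5.96% of all genes). Without female L6S1 A, Ptger1, Ptger3 and Ptger4 were called lower at L6S1 in females, where 24.5% of all genes were called. The interaction of Ptger1 and Ptger3 passed in that fit too (5.21% of all genes), as did their female against male contrast (6.32%). It left female L6S1 B and C as the only female L6S1 libraries.

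**Figure D4:**
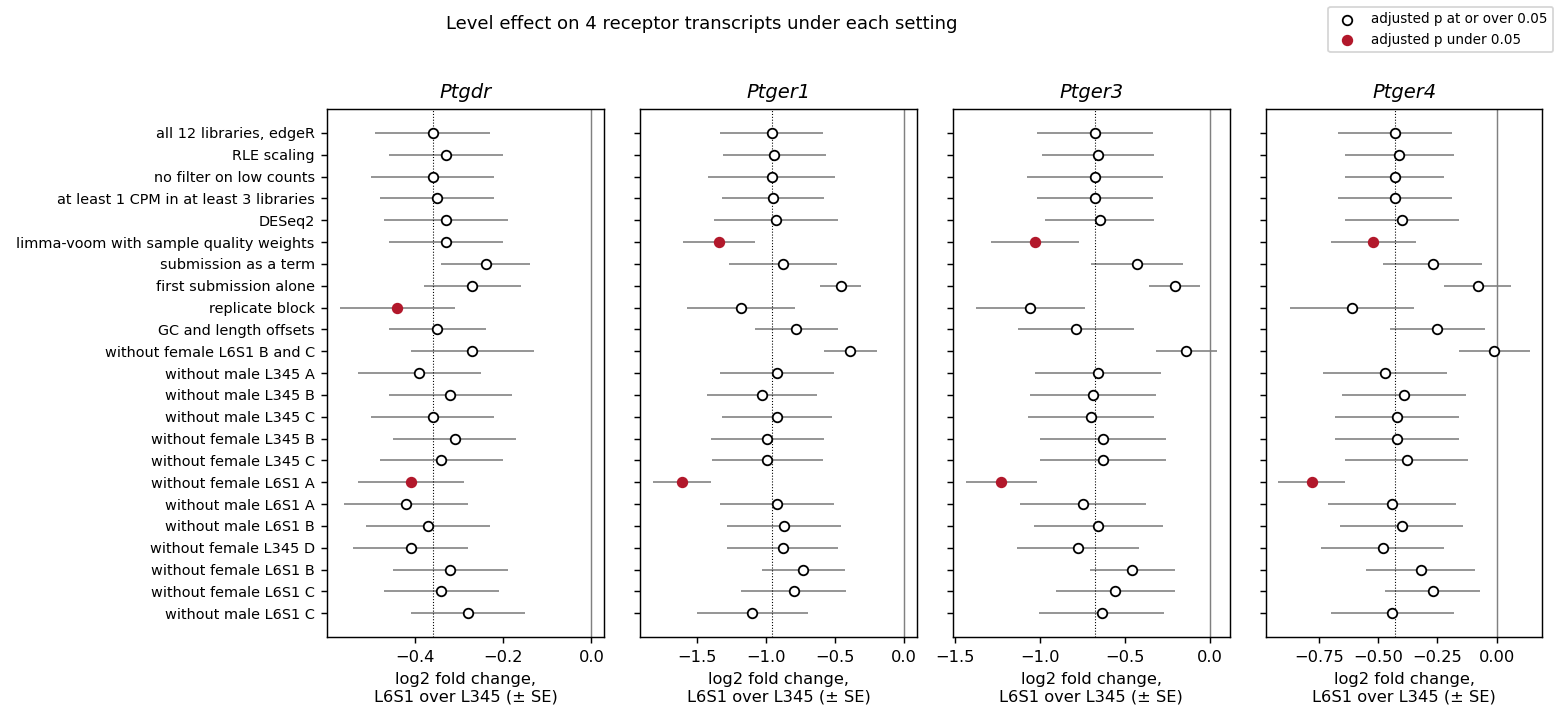
Log2 fold change (L6S1 over L345, horizontal axis, with SE) of Ptgdr, Ptger1, Ptger3 and Ptger4 under each setting of the fit (rows); filled points have an adjusted p under 0.05, and the dotted line marks the value of the fit with all 12 libraries. Ptgdr stays between -0.44 and -0.24, whereas Ptger1, Ptger3 and Ptger4 move with the presence of the female L6S1 libraries.

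The settings of the fit set how far each receptor value can be read. Without female L6S1 A, 4 were called lower at L6S1 (Ptger1, Ptger3, Ptger4 and Ptgdr), in a fit that called 25.7% of all genes. Limma-voom with sample weights called Ptger1 (-1.34, limma adjusted p = 0.00699), Ptger3 (-1.03, limma adjusted p = 0.0143) and Ptger4 (-0.52, limma adjusted p = 0.0468), with 21.4% of all genes called. A replicate block called Ptgdr (-0.44, edgeR adjusted p = 0.0409), with 13.0% of all genes called; no source used here says what the letters mark. Each of these settings called far more of all genes than the 2.33% of the fit with all 12 libraries.

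The genes that make, clear and relay these signals were counted next, from lists compiled for the pathway. Of 14 genes of prostanoid synthesis and clearance, 10 were tested and none was called by edgeR (median log2 fold change 0.29, 9 of 10 above 0, beside a median of -0.06 and 2.33% called over all genes). Ptges3, the cytosolic prostaglandin E synthase and a co-chaperone, had 558 ± 228 CPM at L6S1 and 462 ± 78.9 CPM at L345 (SD, n = 6 each; 0.22 ± 0.16, edgeR adjusted p = 0.387). Ptgr1, a prostaglandin reductase gene, had 22.5 ± 3.17 CPM at L6S1 and 17.6 ± 2.92 CPM at L345 (0.35 ± 0.14, edgeR adjusted p = 0.145). Limma-voom called Ptgr1 (0.50, limma adjusted p = 0.035), with 21.4% of all genes called. Of the 2 remaining prostanoid receptors, Ptgdr2 had 0 counts in 12 of 12 libraries, and Tbxa2r, the thromboxane receptor gene, had 0.553 ± 0.468 CPM at L6S1 and 1.54 ± 0.362 CPM at L345 (-1.70 ± 0.51, edgeR adjusted p = 0.0813). Tbxa2r was called lower by DESeq2 (-1.66, DESeq2 adjusted p = 0.0129), which called 11.0% of the genes it tested. Limma-voom called it too (-2.35, limma adjusted p = 0.0129), with 21.4% of all genes called. So did the fit with GC and length offsets (-1.54, edgeR adjusted p = 0.0465), which called 996 genes. Without female L6S1 A it was called (-2.98, edgeR adjusted p = 0.000773) in a fit that called 25.7% of all genes. The other 18 settings did not call Tbxa2r, which ranged from 0.0 to 2.04 CPM over the libraries. Its log2 fold change was -0.90 (edgeR adjusted p = 0.274) without female L6S1 B and C and -1.04 (edgeR adjusted p = 0.114) within the first submission.

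In the kinin list, 6 of 10 genes were tested and 1 rose at L6S1, beside 1.45% called higher over all genes. The list median was 0.67 (log2), beside -0.06 over all genes tested. The gene that rose was Xpnpep2, a membrane aminopeptidase gene whose product can cut bradykinin. Xpnpep2 had 1.73 ± 0.423 CPM at L6S1 and 0.857 ± 0.17 CPM at L345 (SD, n = 6 each; 1.02 ± 0.24, edgeR adjusted p = 0.0452). The kininogen genes Kng1 and Kng2 and the kallikrein gene Klk1 were too low to test, and Klkb1 was not matched in the symbol table.

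The relays and channels behind the receptors had 6 genes called by edgeR, 5 lower and 1 higher at L6S1, beside 0.877% lower and 1.45% higher over all genes. Of 19 genes tested for Gs and cyclic AMP, 1 fell, none rose and 15 had a log2 fold change below 0 (median -0.28). Over all genes tested, 55.5% lay below 0. The gene that fell, Adcy1, an adenylyl cyclase gene, had 5.82 ± 1.14 CPM at L6S1 and 9.61 ± 1.14 CPM at L345 (SD, n = 6 each; -0.73 ± 0.16, edgeR adjusted p = 0.0327). Of 13 genes tested for Gq and phospholipase C, 1 fell, none rose and 12 had a log2 fold change below 0 (median -0.37). The gene that fell, Itpr1, an inositol trisphosphate receptor gene, had 5.11 ± 0.892 CPM at L6S1 and 8.53 ± 0.569 CPM at L345 (-0.74 ± 0.15, edgeR adjusted p = 0.022).

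Of 11 genes tested for Gi and receptor regulation, 3 fell, none rose and 11 of 11 had a log2 fold change below 0 (median -0.35), beside 0.877% called lower, 55.5% below 0 and a median of -0.06 over all genes tested. Gnai2 and Gnao1, alpha subunits of the Gi and Go proteins, had 107 ± 17.1 and 452 ± 68.3 CPM at L6S1 and 164 ± 32.2 and 629.8 ± 62.2 CPM at L345 (SD, n = 6 each; -0.60 ± 0.13 and -0.49 ± 0.11, edgeR adjusted p = 0.032 and 0.0381). With GC and length offsets Gnao1 was no longer called (-0.26, edgeR adjusted p = 0.135). Grk3, a kinase that desensitises G protein-coupled receptors, had 12.4 ± 1.46 CPM at L6S1 and 20.5 ± 3.48 CPM at L345 (-0.72 ± 0.15, edgeR adjusted p = 0.0256). Of 14 channels known to be sensitised by these routes, 1 rose (Trpv1, 0.52 ± 0.12, edgeR adjusted p = 0.0424), none fell and 13 did not pass (median -0.17, 10 of 14 below 0).

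**Figure D5:**
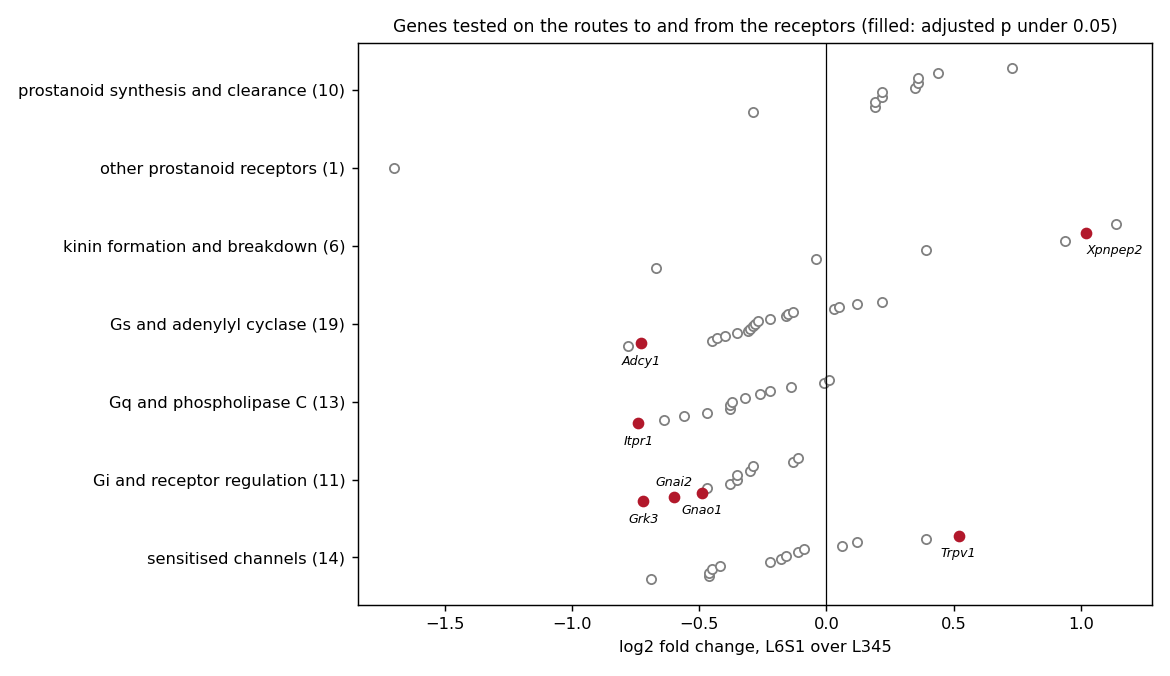
Log2 fold change (L6S1 over L345, horizontal axis) of every tested gene of the 7 lists around the receptors (rows, number tested in brackets); filled points have an edgeR adjusted p under 0.05 and are named. The 11 genes of Gi and receptor regulation all lie left of 0, with Grk3 at -0.72 and Gnao1 at -0.49. So do 12 of 13 genes of Gq and phospholipase C and 15 of 19 of Gs and adenylyl cyclase. Of the genes of prostanoid synthesis and clearance, 9 of 10 lie right of 0.

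The 7 called genes of these lists kept their direction in all 22 other settings, and each call depended on the libraries. Leaving out 1 library ended the call of Adcy1 in 7 of 12 fits (edgeR adjusted p at most 0.113), of Gnai2 in 7 (0.101), of Gnao1 in 10 (0.125), of Grk3 in 6 (0.0897), of Itpr1 in 8 (0.0776), of Xpnpep2 in 8 (0.137) and of Trpv1 in 9 (0.138). All 7 were called without female L6S1 A and without female L345 D. Without female L6S1 B and C all 7 calls ended, with edgeR adjusted p of 0.117 for Adcy1, 0.0586 for Gnai2, 0.161 for Gnao1, 0.097 for Grk3, 0.0644 for Itpr1, 0.179 for Xpnpep2 and 0.078 for Trpv1. With the submission as a term Gnai2 alone stayed called (edgeR adjusted p = 0.0285), and the other 6 had edgeR adjusted p of 0.0569 (Itpr1) to 0.102 (Xpnpep2). The offsets ended the call of Adcy1 (-0.45, edgeR adjusted p = 0.0643) as well as that of Gnao1, and within the first submission Adcy1 (-0.60, edgeR adjusted p = 0.0712) and Xpnpep2 (0.90, edgeR adjusted p = 0.109) were not called.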

How the data were processed

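The receptor genes and the pathway and marker lists were chosen with earlier results of these data known. For each library the authors deposited a table of counts, CPM and RPKM over 41388 genes. Per the submitters' processing notes, Subread and featureCounts 1.4.5 made the counts on build GRCm38.p2. The sources used here do not give the aligner version, annotation release or strand setting. The deposited CPM and RPKM equalled the rescaled count in 12 of 12 tables and were not tested. Libraries were made with the SMARTer ultra-low-input kit and 12 cycles of PCR, per the labels' protocols, with no molecular identifiers, so floors cover counting error only.

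Deposited counts were tested with edgeR 4.0.16 (R 4.3.3): TMM, filterByExpr by group, a robust quasi-likelihood fit of 4 group means (8 residual degrees of freedom, common biological coefficient of variation 0.239), sexes weighted equally, Benjamini-Hochberg over 15281 genes, called at an adjusted p under 0.05. GENCODE M21 gave symbols for 97.3% of genes and GC content for 99.4% of tested genes. Exon overlaps and gene lengths came from the exon positions and lengths deposited with the counts. The code was tested on simulated counts. Alternatives were RLE scaling, other filters, DESeq2 1.42.0, limma-voom 3.58.1, the submission, GC and length offsets (splines of 4 degrees of freedom), a replicate block and left-out libraries. No 2 libraries of a group were alike within sampling noise (chi-square per degree of freedom at least 9.8). Named besides the receptors were, per list, up to 4 called genes or else the 2 most abundant, and the 3 genes most like each receptor of at least 5 CPM.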

Additional observations from a re-analysis of the deposited data

Results flagged for a closer look

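In the L345 group, Ptgfr stood apart in 1 library. It had 3.28 CPM in female L345 C, against 0.0943 to 1.12 CPM in the other L345 libraries. Bdkrb1 met the same criterion on the gap with 0.0472 CPM in male L345 A, which is 1 count and under the floor of 3 counts; the other 5 L345 libraries had 0, and no difference is read from it. Chance alone flags about 1 group in 20 by this gap if values spread normally, and the rate for counts this low was not tested. Why female L345 C was high was not tested.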

How the results depend on the processing

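The log2 fold changes of Ptger1, Ptger3, Ptger4, Ptgdr, Ptgir and Ptgfr kept their sign in 22 of 22 other settings. The number of genes called between levels, 356 with all 12 libraries (222 higher, 134 lower), was 841 with no filter, 1519 by DESeq2, 3268 by limma-voom (1502 higher, 1766 lower), 125 with the submission as a term, 996 with GC and length offsets (729 higher, 267 lower), 137 without female L6S1 B and C, and 80 to 4031 when 1 library was left out, the highest without female L6S1 A. Within the first submission it was 499 (211 higher, 288 lower). The replicate block gave 1985 genes (960 higher, 1025 lower) and 1 receptor called. No source used here says that a letter marks shared animals. Deviations from the group means correlated at -0.2 to 0.31 between libraries with the same letter (0.08 to 0.31 for letter B), and 5 of 12 libraries were most like one of their own letter, so the letters were not taken as pairs. Limma-voom called 3 receptors. Leaving out 1 library gave 0 to 4 receptors called between levels, 0 to 3 in females, 0 to 2 for the interaction and 0 to 2 between females and males, the highest each time without female L6S1 A. Signs turned for Ptger2 (-0.01 with the submission as a term, -0.26 within the first submission, -0.28 without female L6S1 B and C, -0.05 to 0.24 with 1 library left out), for Bdkrb2 (-0.00022 by limma-voom, -0.00098 with the replicate block, -0.11 with the offsets, -0.03 to 0.09 with 1 library left out) and for Ptges3 (-0.04 within the first submission, -0.12 without female L6S1 B and C); the cause was not tested. Depth limits Bdkrb1, at 3 counts or fewer in 12 of 12 libraries, and Ptgfr, at 2 to 84 counts.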
